A study of Rattus norvegicus with 44 samples.

Results

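Xenobiotic metabolism enzymes were taken as the probes whose platform gene symbol begins with Cyp1, Cyp2, Cyp3 or Cyp4 and a letter, or with Gsta, Gstm, Gstp, Gstt, Gsto, Ugt1, Ugt2 or Sult. The rule gave 95 probes of 82 genes among the 14055 probes and 10412 named genes on the arrays. These were 44 cytochrome P450 genes, 14 glutathione S-transferase genes, 11 UDP-glucuronosyltransferase genes and 13 sulfotransferase genes. Each gene was followed through its brightest probe, and 13 genes had more than 1 probe.

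The study measured mRNA with 44 single-colour Agilent arrays in 2 tissues, choroid plexus and trunk blood, from 3 months old male rats (Sprague-Dawley, NCTR strain). Choroid plexus was taken 3 h after saline, 3 h after environmentally-induced hyperthermia (EIH), 3 h after amphetamine (AMPH) at doses the series describes as neurotoxic, 1 day after EIH and 1 day after AMPH. Blood was taken in the same 5 conditions and also 1 day after saline, which makes 11 groups of 4 arrays. The stated purpose was to learn how the plexus makes and regulates cerebrospinal fluid at rest, how it responds to damage, and how immune responses compare between tissues. RNA of 3 rats was pooled on each plexus array, whereas each blood array came from 1 rat. Of the rat numbers in the titles, 5 recurred in 7 pools, and 17 of the 24 blood rats also stood in a pool, so the arrays were not fully independent. Within plexus EIH at 1 day, array 3 shared 1 number with array 2 and another with array 4. Some numbers also stood under different treatments or times, which 1 rat cannot hold. This was so between plexus AMPH at 3 h and plexus EIH at 1 day, and between plexus EIH at 3 h and at 1 day. Saline array 4 of plexus shared a number with array 2 of plexus AMPH at 1 day. Saline array 3 of plexus did so with saline blood of 1 day. The labels of these arrays are uncertain to that extent. The 4 pools of EIH at 1 day were called controls in their titles but EIH in their source and treatment labels, and the latter were followed. The tissue tag of all 24 blood samples also names a brain region, the striatum, whereas the extraction protocol speaks of trunk blood. No saline choroid plexus of 1 day was among the samples, so that every choroid plexus comparison of 1 day against saline joins treatment, time and array set. All values below are log2 fluorescence intensities as deposited, and differences are on the same log2 scale.

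Drug-metabolizing enzymes work in phases. Cytochromes P450 oxidise a lipid-soluble compound, and the transferases then attach glutathione, glucuronic acid or sulfate so that transporters can export the product. The choroid plexus epithelium stands between fenestrated capillaries and cerebrospinal fluid and is known for high conjugating capacity, with product export towards the blood. Many of the same enzymes also handle endogenous fatty acids, leukotrienes, steroids and bilirubin.

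The arrays fell into 2 intensity sets that followed time: array medians lay between 7.12 and 7.19 (log2 intensity) at 3 h and between 7.36 and 7.42 at 1 day. Blank cells made up 8.84% of the enzymes' values in choroid plexus and 13.5% in blood, against 3.05% and 8.57% over all probes, and blanks were most frequent among dim probes (18.3% of values in the dimmest 25% of probes and 0.169% in the brightest 25%). The enzymes were mostly dim. In choroid plexus 15 of the 82 genes (18.3%) lay above the array's median on all 20 arrays, against 40.4% of all genes. In blood 5 of 82 (6.1%) lay above the median on all 24 arrays, against 30.5%. Marker sums separated the tissues: the summed intensity of 12 choroid plexus epithelium markers was 299000 to 311000 on saline plexus arrays and 8650 to 12400 on saline blood arrays of 3 h, where Slc4a5 was blank throughout. The reverse held for 8 erythroid markers, at 3030 to 4000 in plexus and 248000 to 259000 in blood. The 2 salivary gland markers on the arrays summed to 26502 on blood saline array 2 of 3 h, against 22 to 135 on the other saline blood arrays of 3 h and 0 to 164 in plexus, and to 7402 on array 2 of blood AMPH at 3 h and 8171 on array 4 of blood EIH at 1 day. Their part in the blood values was not tested; without blood saline array 2 the tissue comparison had 26 calls among the enzymes in place of 29. A few arrays stood apart from the rest. Plexus array 2 of AMPH at 1 day held the lowest value of 29.5% of all genes and the highest of 23.3%, plexus saline array 4 held the lowest of 27.9%, and blood array 4 of saline at 1 day held the lowest of 19.7% and the highest of 10%. The last was also the highest of the 24 blood arrays for 10 of 38 enzymes. Plexus saline array 4 enters every plexus comparison with saline and the tissue comparison, where leaving it out gave 33 calls among the enzymes.

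The alpha-class glutathione transferases conjugate electrophiles and reduce lipid hydroperoxides, and they gave the plainest contrast among the enzymes. Gsta1 and Gsta3 were among the enzymes with the largest tissue difference. Gsta2 was dim in saline plexus, at 2.80 to 5.15 where measured. In saline blood Gsta2 varied, with 6.99 and 3.64 at 3 h and 9.41 and 7.27 at 1 day, the other arrays being blank. The promoters of these Gsta genes are shown because the antioxidant response element, the sequence bound by Nrf2 (gene Nfe2l2), is a known control element of this class. The windows come from RefSeq on build GRCr8 and span 250 bases before to 50 bases after the start site. They lie at chr9:31216483-31216782 on the minus strand (Gsta1), chr9:31154739-31155038 on the plus strand (Gsta3) and chr8:88077043-88077342 on the minus strand (Gsta2), each written 5′ to 3′. Capitals mark matches to the antioxidant response element TGACNNNGC and to the aryl hydrocarbon receptor core GCGTG, both searched on both strands.
Gsta1: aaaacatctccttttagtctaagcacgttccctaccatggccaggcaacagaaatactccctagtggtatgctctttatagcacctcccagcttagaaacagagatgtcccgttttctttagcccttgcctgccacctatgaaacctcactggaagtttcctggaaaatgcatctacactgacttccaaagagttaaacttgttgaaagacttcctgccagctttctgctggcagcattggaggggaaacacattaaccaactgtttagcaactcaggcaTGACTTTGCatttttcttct
Gsta3: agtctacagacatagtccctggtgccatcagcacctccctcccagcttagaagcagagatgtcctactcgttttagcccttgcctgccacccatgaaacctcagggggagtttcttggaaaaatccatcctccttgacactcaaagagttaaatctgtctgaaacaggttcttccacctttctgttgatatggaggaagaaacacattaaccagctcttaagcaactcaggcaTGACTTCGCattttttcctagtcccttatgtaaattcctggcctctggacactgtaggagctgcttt
Gsta2: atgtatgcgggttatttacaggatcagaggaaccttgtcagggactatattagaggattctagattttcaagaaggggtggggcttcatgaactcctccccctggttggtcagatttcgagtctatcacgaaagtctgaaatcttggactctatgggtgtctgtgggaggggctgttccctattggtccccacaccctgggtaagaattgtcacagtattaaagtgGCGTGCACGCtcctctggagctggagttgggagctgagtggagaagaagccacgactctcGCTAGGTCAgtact
The antioxidant match lay at bases 31 to 39 after the start in Gsta1 and at bases -17 to -9 in Gsta3. In Gsta2 it lay on the reverse strand at bases 37 to 45, and a pair of adjacent receptor cores, 1 on each strand, spanned bases -24 to -15. Gsta1 and Gsta3 shared an exact run of 20 bases upstream (tttagcccttgcctgccacc), whereas the longest run shared by Gsta1 and Gsta2 had 8 bases. Of the 71 enzyme genes with a RefSeq promoter in this window, 7 (9.86%) held the antioxidant element: Gstp1, Gstm5, Gstm7, Cyp4b1, Gsta1, Gsta2 and Gsta3. Among all 27457 promoters 12.2% held it. The receptor core was in 15 of the 71 (21.1%) and in 31.1% of all promoters. A match describes letters in the window and not a bound site.

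Under saline the choroid plexus carried more mRNA than blood for 18 of the 74 enzymes tested and less for 11, with measured differences running from 5.83 for Sult1a1 down to -3.46 for Cyp4a2; that of Gsta1 (4.82) is a lower bound, since its plexus signal was at the scanner's limit. These 29 calls (limma, Benjamini-Hochberg adjusted p under 0.05) stand against 5581 of 9925 genes called in the same comparison (56.2%; 31.9% higher in plexus and 24.3% lower), so the enzymes were not called more often than genes at large. Their median difference was 0.15, the same as that of all genes tested. The 8 untested genes, with values on fewer than 2 saline blood arrays, were Cyp1a2, Cyp2c12, Cyp2u1, Cyp3a62, Cyp4a8, Cyp4x1, Sult1c2a and Sult1d1. Of these only Cyp1a2 also had values on fewer than 2 saline plexus arrays. Cyp2u1 read 5.85, 5.87, 5.85 and 4.69 in saline plexus and was blank throughout saline blood of 3 h. By family, 7 of 14 glutathione transferases were higher in plexus and none lower, while cytochromes P450 split into 7 higher and 7 lower of 38 tested. Sulfotransferases split into 3 higher and 2 lower of 11, the Ugt1 genes had 1 higher of 4, and the Ugt2 genes had 2 lower of 7. Of the 43 enzymes with 4 values in both groups, 17 did not overlap between tissues, against 61.6% of all genes. In tissue samples such as these, fewer cells of a type and less RNA per cell cannot be told apart.

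**Figure D1:**
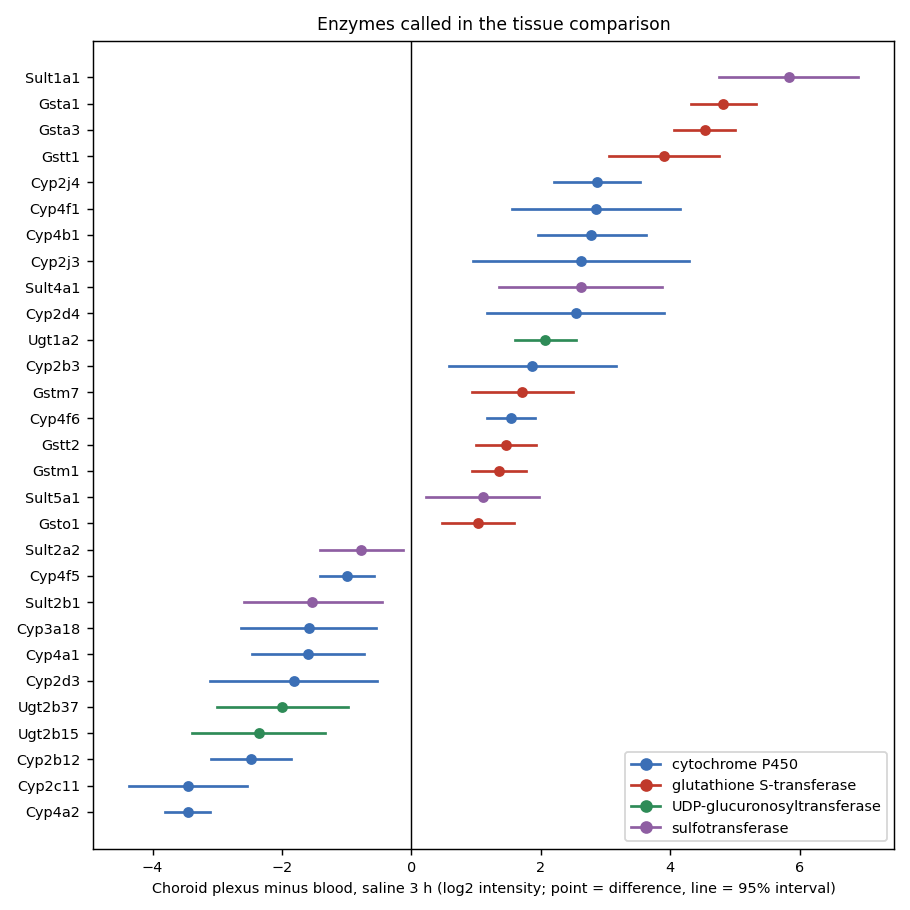
Difference in log2 intensity between saline choroid plexus and saline blood at 3 h for the 29 enzymes called, sorted by size and coloured by family, with lines for the 95% interval. Sult1a1, Gsta1 and Gsta3 lie at the upper end with 5.83, 4.82 (a lower bound) and 4.53, and Cyp4a2 lies at the lower end with -3.46.

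Among the sulfotransferases, Sult1a1 adds sulfate to phenols and catechols and was far higher in plexus. Its saline plexus values were 11.19, 11.06, 10.37 and 10.32, and its saline blood values were 5.78, 4.92 and 4.02 with 1 array blank. Every plexus array exceeded every measured blood array (log2 difference 5.83, standard error 0.45, limma adjusted p = 3.5e-05). Of the Sult1a1 blood values, 4.92 was shared by 452 probes of array 2 and 4.02 by 378 of array 3. The size of this difference therefore rests in part on the bottom of the scale, and no fold is given. Sult4a1, a brain-enriched sulfotransferase with no settled substrate, read 7.05, 6.05, 5.22 and 4.76 in plexus and 3.17, 3.12 and 3.18 in blood (2.62 ± 0.53 SE, limma adjusted p = 0.00451). Those blood values were each shared by 355 to 416 probes of their array at the bottom of its scale, so the size of this difference rests on that scale. Sult5a1 was also higher in plexus (1.10, limma adjusted p = 0.038). The hydroxysteroid sulfotransferases Sult2b1 (-1.53) and Sult2a2 (-0.78, limma adjusted p = 0.0452) were lower in plexus. The other 6 sulfotransferases tested were not called.

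Gsta1 read 15.98, 15.97, 16 and 15.99 in saline plexus, at the scanner's upper limit of 16, and 11.14, 10.94, 10.81 and 11.77 in saline blood. The groups were far apart, and because the plexus signal had reached the scanner's limit the difference was at least 28.2-fold (log2 difference 4.82 ± 0.21 SE, limma adjusted p = 8.7e-07). Gsta3 was below that limit, with 13.72, 13.97, 13.86 and 13.86 in plexus and 8.96, 9.23, 9.23 and 9.86 in blood, a 23.1-fold difference (4.53 ± 0.20 SE, limma adjusted p = 9e-07). The platform lists these probes as Gsta3 and Gsta5, and their accessions carry the symbols Gsta1 and Gsta3 in RefSeq. Alpha-class genes are close paralogs, so a probe may read more than 1 of them. Gsta2 had 3 plexus values of 2.80 to 5.15 and 2 blood values of 3.64 and 6.99 and was not called.

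The theta-class enzyme Gstt1, which acts on small halogenated compounds, read 8.02, 8.11, 7.98 and 7.41 in plexus and 3.17, 4.30 and 4.46 in blood (3.91 ± 0.36 SE, limma adjusted p = 8.1e-05). From 3.15% to 13.1% of the probes on those blood arrays lay at or below these values, and no fold is given against them. Gstt2 was higher by 1.46 ± 0.20 SE, and its second probe gave 1.35. Among the mu class, Gstm7 (1.71) and Gstm1 (1.35) were higher in plexus, whereas Gstm2 (0.24), Gstm3 (0.60), Gstm5 (0.68) and Gstm6l (0.84) were not called. Gstm1 was tight within plexus at 10.45 to 10.56 and lay at 8.70 to 9.44 in blood. Gsto1, an omega-class enzyme with dehydroascorbate reductase activity, was higher by 1.03 ± 0.24 SE. Gstp1, the pi-class enzyme, was bright in both tissues and was not called (0.17 ± 0.13 SE), while its second probe was called lower in plexus (-0.50).

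Cytochromes P450 of family 2 that were higher in plexus were Cyp2j4, Cyp2j3, Cyp2d4 and Cyp2b3. Cyp2j4, of the arachidonic acid epoxygenase subfamily, read 9.35, 9.30, 9.17 and 9.29 in plexus and 5.67, 6.46, 6.35 and 7.13 in blood, a 7.33-fold difference (2.87 ± 0.28 SE, limma adjusted p = 5.7e-05). Cyp2d4, the principal Cyp2d form of rat brain, read 8.37 to 8.54 in plexus and 4.02 to 7.04 in blood (2.54 ± 0.59 SE), and its second probe was also called (2.08). Cyp2j3 was called on 4 plexus and 2 blood values (2.62 ± 0.67 SE), but its second probe, with 4 values in each group, gave 0.85 ± 0.57 SE and was not called. The family 2 genes lower in plexus were Cyp2c11, the male-specific hepatic form (-3.45 on 2 plexus and 4 blood values), Cyp2b12 (-2.48) and Cyp2d3 (-1.82). The Cyp2c11 plexus value of 4.98 on array 1 was also that of Cyp2b12 and Cyp2c22, and 4.68 on array 3 that of Ugt2b1. On array 3 the Cyp2b12 value of 4.76 was also that of Cyp2c22. The sizes of the Cyp2c11 and Cyp2b12 differences therefore rest in part on the bottom of the scale, and no fold is given. The Cyp2d3 call was lost when blood saline array 2, 3 or 4 was left out (limma adjusted p = 0.0541 to 0.0595).

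Family 4 enzymes hydroxylate fatty acids and leukotrienes at the chain end, and they divided between the tissues with 3 higher and 3 lower of 9 tested. Cyp4f1 (2.85 ± 0.56 SE), Cyp4b1 (2.78 ± 0.36 SE) and Cyp4f6 (1.54 ± 0.16 SE) were higher in plexus. Cyp4a2 read 5.88, 6.27, 6.17 and 5.86 in plexus and 9.30, 9.64, 9.53 and 9.55 in blood, an 11-fold difference in favour of blood (-3.46 ± 0.15 SE, limma adjusted p = 8.2e-07). Cyp4a1 (-1.60) and Cyp4f5 (-0.99) were lower in plexus too. Cyp4b1 in blood read 3.17, 3.12, 4.02 and 4.53, of which 3.17 was shared by 385 probes of array 1 and 3.12 by 355 of array 2, so differences set against such values rest on the bottom of the scale. Of the Cyp3 genes, which oxidise a wide range of drugs in liver, Cyp3a18 was lower in plexus (-1.59, limma adjusted p = 0.0203). That call was lost without plexus saline array 1 or 2 or blood saline array 4 (limma adjusted p = 0.0615, 0.0680 and 0.0607). The Cyp3a18 plexus values were 3.39, 3.59 and 4.76, of which 3.39 was also that of Cyp3a62 on array 1, near the bottom of the scale. Cyp1a1 (-0.29) and Cyp1b1 (-0.74), the classical targets of the aryl hydrocarbon receptor, were not called.

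Ugt1a2, which transfers glucuronic acid to bilirubin and other aglycones, read 9.85, 10.11, 9.94 and 10.12 in plexus and 7.59, 8.07, 8.40 and 7.67 in blood. The groups did not overlap and differed 4.21-fold (2.07 ± 0.20 SE, limma adjusted p = 5.4e-05), and the second probe gave 2.23. The Ugt1 genes share their downstream exons, so probes may read several of them. Ugt1a6, which handles planar phenols, did not separate the tissues (-0.16 ± 0.24 SE). The steroid-conjugating Ugt2b15 (-2.36) and Ugt2b37 (-2.0) were lower in plexus, although the second Ugt2b37 probe gave 0.20 and was not called. The platform lists this Ugt2b15 probe as Ugt2b17, while its own Ugt2b15 probe carries the symbol Ugt2b35 in RefSeq. The Ugt2b15 plexus values were 4.58, 4.48 and 3.99, of which 4.58 was also that of Cyp2b21 on array 1. The size of the Ugt2b15 difference therefore rests in part on the low end of the scale.

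Genes that supply and complete these reactions were more often higher in plexus than lower, as were genes at large (31.9% higher and 24.3% lower). All 9 cofactor genes were tested and 8 were higher, led by Bpnt1, which clears the product of sulfation (4.26), with Slc35b3 (2.01), Papss2, a synthase of the sulfate donor (1.88), and Slc35d1 (1.71); none was lower and the list's median was 1.51. Of 27 other phase I genes and electron donors tested, 16 were higher and 3 lower (median 1.03), among them Por, the electron donor of microsomal P450s (2.02), and Ephx1, the microsomal epoxide hydrolase (3.57), against Xdh (-5.30). Of 15 genes of glutathione supply and other transferases, 8 were higher and 2 lower (median 0.82), with Gstk1 at 2.88 and Gclc, which catalyses the limiting step of glutathione synthesis, at 1.38. Of 14 efflux and organic anion transporters tested, 7 were higher and 1 lower (median 0.86), with Slco1c1 at 10.04, Slco1a5 at 8.39, Slc22a8 at 4.75 and Abcc1 at 2.66. Of 13 receptors and transcription factors, 5 were higher and 2 lower (median -0.21). The pregnane X receptor Nr1i2 (3.76), Nfe2l2 (0.74) and its inhibitor Keap1 (1.24) were higher, and the Nfe2l2 antagonist Bach1 was lower (-5.85). The median of all genes was 0.15.

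At 3 h few plexus enzymes passed the test after either exposure. After EIH none of 79 enzymes tested was called with limma, and 4 had an unadjusted p under 0.05; 35 of 10261 genes were called (0.341%). After AMPH 1 of 80 was called, and 7 had an unadjusted p under 0.05; 16 of 10263 genes were called (0.156%). Between AMPH and EIH none of 78 was called with limma and 3 had an unadjusted p under 0.05, where 1 of 10273 genes was called (0.00973%). The median difference of the enzymes was -0.04 after EIH and -0.03 after AMPH, beside 0.01 and 0.03 for all genes. With 4 values in both groups, 6 of 54 enzymes did not overlap saline after EIH and 5 of 55 after AMPH, where 16.5% and 13% of all genes did not. Both exposures were compared with the same 4 saline arrays.

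These counts over all genes moved widely with single arrays. After EIH the 35 calls became 0 without saline array 1, 3 or 4 or EIH array 1, 2 or 4, 18 without saline array 2 and 89 without EIH array 3. After AMPH the 16 calls became 0 without saline array 1 or 2 or AMPH array 3, 1 without saline array 4 or AMPH array 1 or 2, 7 without saline array 3 and 290 without AMPH array 4. Array 2 of AMPH at 1 day shares in the estimate of the spread, and without it 171 genes were called after EIH and 350 after AMPH, while the enzymes' counts stayed at 0 and 1. With array weights 1110 and 1354 genes were called, and 2 and 6 enzymes. The few calls in plexus at 3 h therefore depend on how these arrays are treated.

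The call was Cyp3a2, a drug-oxidising enzyme of male rat liver. It read 5.41, 5.13 and 5.11 on 3 AMPH arrays and 3.39 and 3.18 on 2 saline arrays, the remaining arrays being blank. AMPH exceeded saline by 1.93 ± 0.27 SE (limma adjusted p = 0.0434), on 3 and 2 values. On saline array 1 the value 3.39 was also that of Cyp2r1 and Cyp3a18. On saline array 3 the value 3.18 was also that of Cyp4x1 and Sult1d1. Of the AMPH values, 5.41 was also that of Cyp2b12 on array 1, and 5.13 and 5.11 were those of Cyp2a3 on arrays 2 and 4. The size of this difference therefore rests on the low end of the scale. The call was lost without saline array 2 or 4 or AMPH array 1, 2 or 3 (limma adjusted p = 0.0671, 0.117, 0.129, 0.144 and 0.165). Without saline array 1 or 3 the gene had 1 saline value left and could not be tested. EIH had 1 value of 5.55 and was not tested. At 1 day after EIH the gene read 5.14, 5.00 and 5.25 (1.85 ± 0.27 SE against saline of 3 h, limma adjusted p = 0.166). The other Cyp3 genes were not called in plexus at 3 h.

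The conjugating enzymes that marked the plexus moved little at 3 h. Gsta1 stayed at 15.97 to 15.99 on the 8 exposed arrays of 3 h, where the scanner's limit would hide any rise. Gsta3 lay at 13.69 to 14.08 on those arrays and at 13.72 to 13.97 under saline. Sult1a1 differed from saline by -0.15 ± 0.49 SE after EIH and by 0.37 ± 0.49 SE after AMPH. Gstt1 differed by 0.20 ± 0.14 SE after each exposure and by 0.04 without saline array 4. Gstm1 differed by -0.04 and -0.07, Gsto1 by -0.22 and -0.13 and Ugt1a6 by 0.19 and 0.09. Gstp1 was lower after AMPH on every array (-0.34 ± 0.17 SE, limma adjusted p = 0.375). Its 4 values of 13.77 to 14.03 lay below the saline values of 14.18 to 14.33. None of these passed the test.

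Among plexus P450s, Cyp2j4 read 9.35, 9.30, 9.17 and 9.29 under saline, 9.0, 8.94, 8.88 and 8.55 after EIH and 8.71, 8.57, 8.49 and 9.21 after AMPH. The EIH arrays all lay below saline, and 3 of 4 AMPH arrays did. The differences of -0.44 ± 0.28 SE and -0.53 ± 0.28 SE were not called (limma adjusted p = 0.541 and 0.400). The spread in this fit came from all 20 plexus arrays and included array 2 of AMPH at 1 day, whose Cyp2j4 value of 10.77 was the highest of all. Without that array the limma adjusted p was 0.162 and 0.0797. With array weights, which were lowest for that array (0.0583) and for saline array 4 (0.207), both differences passed (-0.47, limma adjusted p = 0.0382; -0.60, limma adjusted p = 0.0163). Cyp2d4 went the other way after AMPH, with 8.70 to 9.08 against 8.37 to 8.54 (0.39 ± 0.18 SE, limma adjusted p = 0.314). Cyp2w1 was 4.78, 4.89, 5.27 and 8.90 under saline, so that its lower means after AMPH (-1.93) and EIH (-1.63) rest largely on saline array 4 and were -0.95 and -0.65 without it. Cyp1a1 and Cyp1b1 differed from saline by 0.33 and 0.76 after EIH and by 0.53 and 0.65 after AMPH, and neither was called.

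The related gene lists had 1 call in plexus at 3 h. Slc35b2, a carrier of the sulfate donor, was lower after EIH (-0.77, limma adjusted p = 0.0249), the sole call of the 9 cofactor genes. No gene was called with limma among the receptors and transcription factors, other phase I enzymes, glutathione and other transferases or transporters after either exposure. The summed signal of the epithelium markers was 287000 to 302000 after EIH and 294000 to 313000 after AMPH, against 299000 to 311000 under saline.

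**Figure D2:**
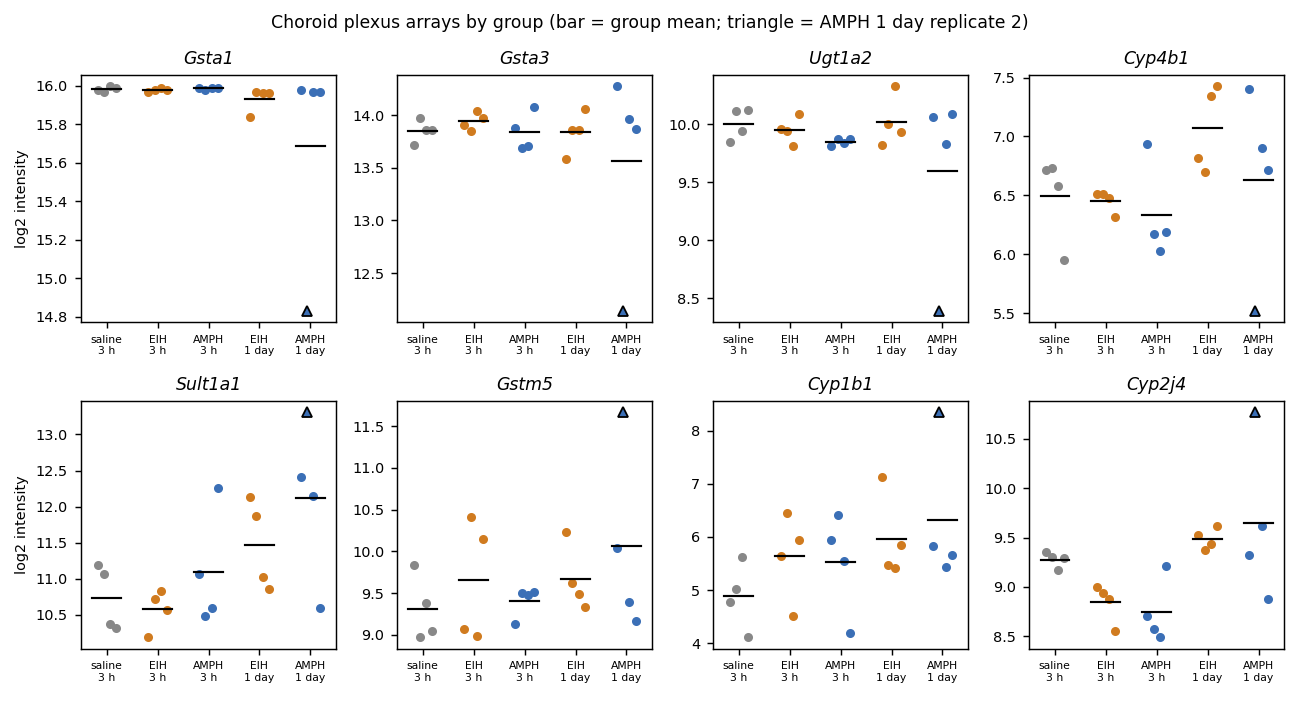
log2 intensity of 8 enzymes on each of the 20 choroid plexus arrays in the 5 groups, with the group mean as a line and array 2 of AMPH at 1 day as a triangle. Gsta1 lies at 15.84 to 16 on the other 19 arrays and at 14.83 on the triangle, which is also the highest point for Sult1a1 (13.31) and Cyp1b1 (8.35).

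At 1 day the plexus enzymes were compared with saline of 3 h, where treatment, time and array set cannot be told apart. None of 80 enzymes tested after EIH and none of 76 after AMPH was called with limma, while 10 and 15 had an unadjusted p under 0.05. Of all genes 0 of 10267 were called after EIH (0%) and 3 of 10194 after AMPH (0.0294%). The median difference of the enzymes was 0.23 after EIH and 0.28 after AMPH, beside 0.17 and 0.11 for all genes, and the array medians of 1 day were themselves higher than those of 3 h. The enzymes with the smallest p after AMPH were Cyp4v3, a fatty acid hydroxylase, and Gstt1. Cyp4v3 read 7.12, 7.28, 7.12 and 6.44 under saline, 7.56 to 7.80 after EIH (0.68 ± 0.17 SE, limma adjusted p = 0.200) and 7.55 to 8.11 after AMPH (0.75 ± 0.17 SE, limma adjusted p = 0.105). Neither exposed group overlapped saline on this probe, the highest value (8.11) being that of AMPH array 2. Without saline array 4 the differences were 0.49 and 0.57, and without AMPH array 2 that of AMPH was 0.63. The second Cyp4v3 probe gave 0.32 and 0.45, with both groups overlapping saline. Gstt1 was higher by 0.47 and 0.48 (limma adjusted p = 0.283 and 0.159), also without overlap. AMPH array 2 was again the highest (8.55), and without saline array 4 the Gstt1 differences were 0.31 and 0.32. With 4 values in both groups 13 of 53 enzymes did not overlap after EIH and 3 of 53 after AMPH, against 13.2% and 8.11% of all genes. Arrays 2, 3 and 4 of the EIH group were linked by shared rat numbers, so its spread may be too small. No block for rat numbers was fitted within plexus alone. Direct comparison of AMPH with EIH at 1 day, within 1 array set, gave no call among 75 enzymes with limma (4 with an unadjusted p under 0.05) or among 10204 genes (0%).

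Array 2 of AMPH at 1 day decided much of that group's spread. Of the 49 enzymes with a value on all 20 plexus arrays, it was the highest for 20 (40.8%; 23.3% of all genes) and the lowest for 11 (22.4%; 29.5% of all genes). It was low for Gsta1 (14.83), Gsta3 (12.14), Ugt1a2 (8.39) and Cyp4b1 (5.52). It was high for Sult1a1 (13.31), Gstm5 (11.67), Gstm2 (11.19), Cyp2j4 (10.77), Cyp1b1 (8.35) and Cyp2e1 (7.78). The same array had the lowest epithelium sum (129000, against 287000 to 313000 on the other plexus arrays) and the highest sums for stroma and meninges (248000), erythroid cells (24500) and macrophages (60600). Their part in these values was not tested. Sult1a1 read 12.41, 13.31, 12.15 and 10.59 in that group (1.38 ± 0.49 SE above saline, limma adjusted p = 0.200) and 0.98 above saline without the array. In the EIH group of 1 day, where the array has no place, Sult1a1 read 12.14, 11.87, 11.03 and 10.86 (0.74 ± 0.49 SE, limma adjusted p = 0.543).

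Blood responded at 3 h, and the enzymes called differed in direction. After EIH Cyp4f5, Gsto1 and Gstt2 were lower and Cyp4b1 and Cyp3a23-3a1 higher, which is 5 of 74 enzymes tested, where 1250 of 9893 genes were called (12.6%; 5.63% higher and 7% lower). After AMPH Cyp4f5 was lower and Ugt1a2, Cyp3a23-3a1, Cyp4f1 and Cyp2c11 higher, again 5 of 74, where 856 of 9863 genes were called (8.68%; 5.08% higher and 3.6% lower). Neither share exceeded that of all genes. The enzymes' median difference was 0.42 after EIH and 0.76 after AMPH, against 0.08 and 0.01 for all genes, and 77.0% and 75.7% of the tested enzymes had a positive difference, against 54.4% and 50.6% of all genes. With 4 values in both groups 8 of 48 enzymes did not overlap after EIH and 10 of 50 after AMPH, where 27.7% and 23% of all genes did not. Both exposures share the 4 saline arrays. The EIH count was 3 without saline array 1 or EIH array 3. The AMPH count was 2 without saline array 1 or AMPH array 4, 3 without saline array 2 or 3 or AMPH array 2, and 10 without AMPH array 3. Direct comparison of AMPH with EIH gave no call with limma among 81 enzymes (8 with an unadjusted p under 0.05) and 4 calls among 10068 genes (0.0397%).

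**Figure D3:**
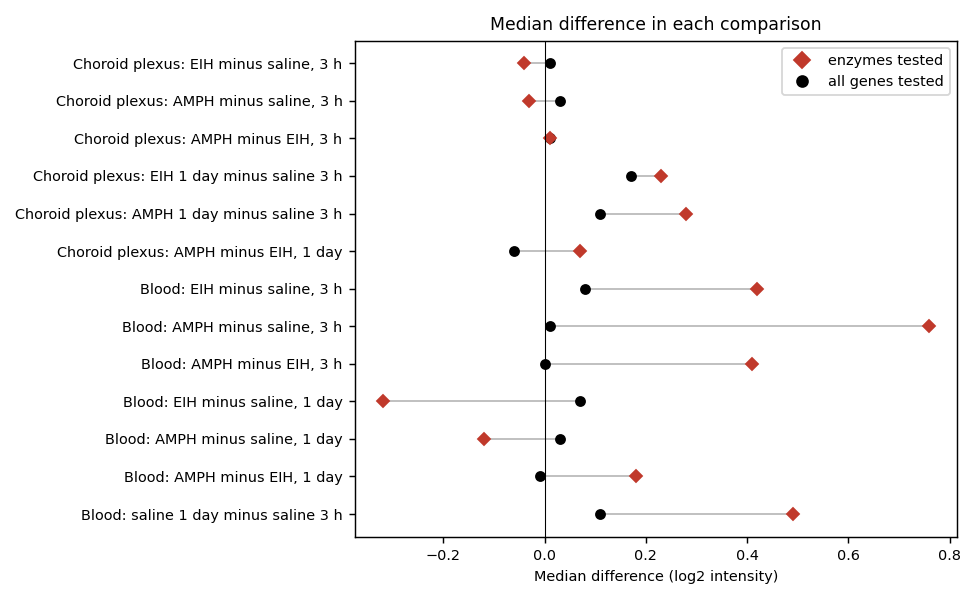
Median log2 difference of the tested enzymes and of all genes tested in 13 comparisons. The medians of the enzymes and of all genes lie furthest apart in blood 3 h after AMPH, at 0.76 and 0.01.

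Cyp4f5, whose family hydroxylates leukotriene B4, fell after both exposures. Saline blood read 7.86, 7.82, 7.91 and 7.36, EIH blood 5.38, 5.22, 4.43 and 3.85, and AMPH blood 5.64, 6.16, 7.0 and 4.84. Every exposed array lay below every saline array. On EIH array 4 the value 3.85 was also that of Cyp4f4 and Gstm3. On EIH array 3 the value 4.43 was also that of Cyp2a2 and Cyp2d2. On EIH array 1 the value 5.38 was also that of Cyp2g1 and Ugt2a1, and on array 2 the value 5.22 that of Cyp2b2 and Cyp2d2. On AMPH array 4 the value 4.84 was also that of Cyp2g1. The size of the fall therefore rests on the low end of the scale, for AMPH in part, and no fold is given. The difference was -3.02 ± 0.39 SE after EIH (limma adjusted p = 0.000108) and -1.83 ± 0.39 SE after AMPH (limma adjusted p = 0.00694). The fall stood under all 18 alternative settings in both comparisons. The summed signal of 7 T cell markers ran beside it: 20400 to 26000 under saline, 4610 to 12500 after EIH and 5970 to 13100 after AMPH, with 6 of 6 tested T cell markers lower in both comparisons. Sums of 8 neutrophil markers ran the other way, at 22000 to 35600, 45900 to 90500 and 71200 to 121000. At 1 day Cyp4f5 was 7.82, 7.74, 7.87 and 6.62 under saline, 8.50, 8.12, 8.31 and 8.21 after EIH and 7.75, 7.79, 7.30 and 7.14 after AMPH, with T cell sums of 20500 to 27900, 21300 to 28000 and 8850 to 17400. The part of cell composition in the Cyp4f5 values was not tested.

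Gsto1 and Gstt2 fell after EIH, by amounts that moved with array 3 of that group. Gsto1 read 10.63, 9.63, 10.14 and 10.49 under saline and 9.07, 8.51, 5.32 and 8.98 after EIH, without overlap. The difference was -2.26 ± 0.54 SE (limma adjusted p = 0.00803) and -1.37 without array 3. In a fit of the compared groups alone it was not called (limma adjusted p = 0.122). After AMPH Gsto1 read 9.18, 8.89, 9.46 and 9.70 (-0.92 ± 0.54 SE, limma adjusted p = 0.345). Gstt2 read 7.36, 7.54, 7.33 and 7.86 under saline and 6.57, 4.20 and 6.04 after EIH with 1 blank (-1.92 ± 0.46 SE, limma adjusted p = 0.0084), and -1.22 without array 3 (limma adjusted p = 0.0636). Its second probe gave higher values after EIH, from 5.58, 6.46, 5.06 and 6.30 to 6.86, 8.31, 6.02 and 6.65 (1.11 ± 0.56 SE, not called), and the mean of both probes gave -0.06. Array 3 also read 8.31 for Gstp1, where the other EIH arrays read 13.70 to 14.01, while the second Gstp1 probe gave 12.51 there and 12.42 to 12.74 on the others.

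Cyp4b1 rose after EIH from 3.17, 3.12, 4.02 and 4.53 to 5.15, 7.36 and 6.04 with 1 blank. The 3 measured arrays lay above all saline arrays (2.47 ± 0.65 SE, limma adjusted p = 0.0177). The call was lost without saline array 1 or EIH array 3 (limma adjusted p = 0.0541 and 0.0994). After AMPH the gene differed by 1.41 ± 0.60 SE and was not called.

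The genes that rose after AMPH included several that are abundant in liver. Cyp3a23-3a1, a major inducible hepatic P450, read 3.17, 4.30 and 3.80 under saline, 7.84, 7.46, 6.16 and 4.99 after EIH (2.86 ± 0.83 SE, limma adjusted p = 0.0326) and 6.01, 7.59, 5.85 and 9.60 after AMPH (3.51 ± 0.83 SE, limma adjusted p = 0.0157). Without saline array 1 these became 2.56 and 3.22 and neither was called (limma adjusted p = 0.119 and 0.0676), and the EIH call was also lost without saline array 4 or EIH array 1 or 2 (limma adjusted p = 0.0718, 0.0826 and 0.0772). The Cyp3a23-3a1 saline values were each shared by 385 to 475 probes of their array, so the sizes of its rises rest on the bottom of the scale. Cyp4f1 read 5.16, 4.30, 3.18 and 5.74 under saline and 6.66, 7.46, 6.55 and 10.33 after AMPH (3.16 ± 0.89 SE, limma adjusted p = 0.0341). Of its saline values, 4.30 was shared by 475 probes of array 2 and 3.18 by 416 of array 3. Cyp2c11 read 7.54, 8.42, 8.42 and 8.75 and then 9.22, 10.01, 9.36 and 12.32 (1.95 ± 0.57 SE, limma adjusted p = 0.0382). In both genes AMPH array 4 was the highest. Without it Cyp4f1 differed by 2.29 and Cyp2c11 by 1.25, and neither was called (limma adjusted p = 0.120 and 0.144). Each call was also lost without saline array 1, 2 or 3 or AMPH array 2 (limma adjusted p = 0.0604 to 0.107 for Cyp4f1 and 0.0661 to 0.124 for Cyp2c11).

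Other hepatic enzymes showed the same uneven pattern over single rats without passing the test. Cyp2e1, which oxidises ethanol and acetone, read 4.83, 5.75, 4.24 and 4.69 under saline, 9.52, 4.84, 5.06 and 5.12 after EIH and 7.49, 8.78, 5.92 and 11.09 after AMPH (3.44 ± 1.08 SE for AMPH, limma adjusted p = 0.0521). Cyp2c13, a male hepatic form, read 5.58, 7.73, 5.06 and 5.36, then 11.49, 5.42, 6.78 and 8.06, then 9.17, 10.36, 7.62 and 12.81 (4.06 ± 1.33 SE for AMPH, limma adjusted p = 0.0644). Gsta2 had saline values of 6.99 and 3.64 with 2 blanks, EIH values of 10.42, 5.42, 5.32 and 7.49 and AMPH values of 8.99, 9.31, 6.80 and 12.49. The summed signal of 18 liver plasma protein and enzyme markers was high on the same arrays. It was 1320 to 4620 under saline, 41058 on EIH array 1 against 5158 to 6940 on the others, and 15940, 24439, 5231 and 117449 on the AMPH arrays. Of 17 liver markers tested 3 rose after AMPH (median 3.21) and none was called after EIH with limma (median 1.79). Albumin, the defining marker Alb, read 13.41 on EIH array 1 and 12.26, 12.91, 9.77 and 15.06 on the AMPH arrays. The enzyme markers of the list were uneven. On AMPH array 4 Hpd read 10.47, against 7.47 to 8.47 under saline. On the same array Cps1 read 5.31, Tdo2 8.35 and Tat 4.55. Their measured saline values were 4.53 to 6.28, 7.53 to 8.13 and 3.18 to 3.25. AMPH array 4 was the highest of the 24 blood arrays for 12 of 38 enzymes measured throughout (31.6%), against 4.23% of all genes. The pattern also stood on an unexposed rat, array 2 of saline blood at 1 day. That array read 12.77 for Alb, 9.84 for Cyp2c13, 7.85 for Cyp2e1 and 9.41 for Gsta2. Liver sums in that saline group ran from 2550 to 19900. The part of liver RNA in these values was not tested.

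**Figure D4:**
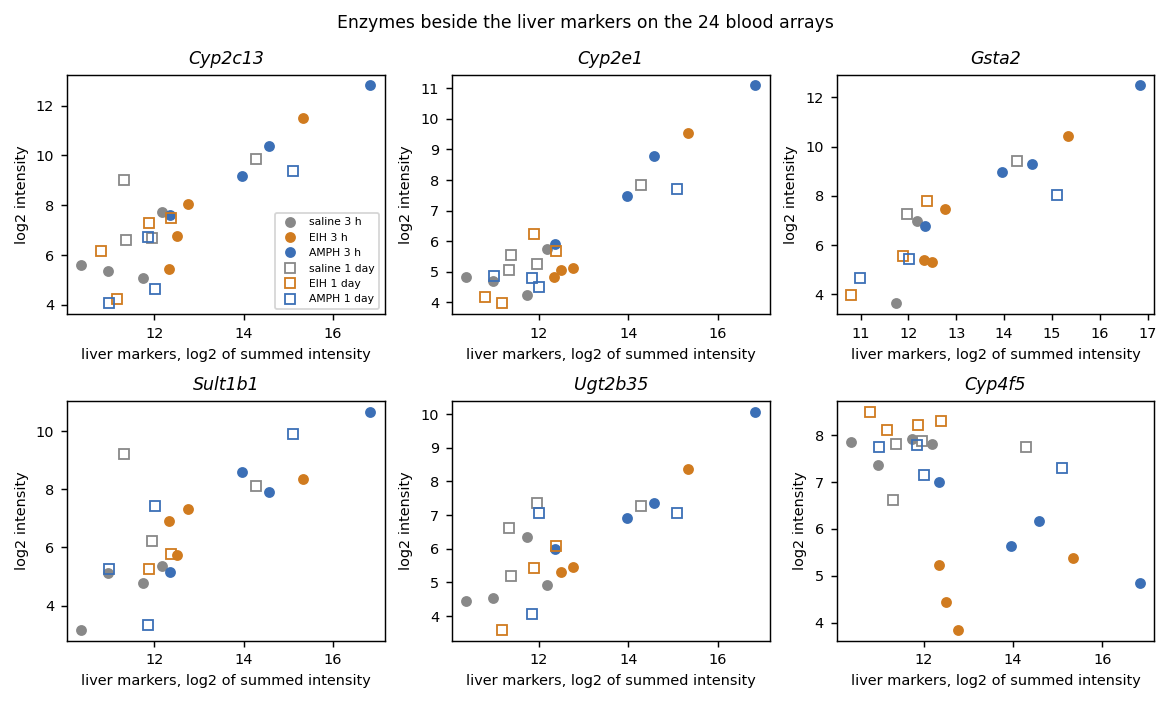
log2 intensity of 6 enzymes on the 24 blood arrays against the log2 summed intensity of the 18 liver markers on the same array, coloured by group, with blank values not drawn. Cyp2c13, Cyp2e1 and Gsta2 are highest on AMPH array 4 of 3 h (12.81, 11.09 and 12.49), where the liver sum is also highest, whereas Cyp4f5 is not.

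Ugt1a2 rose in blood after AMPH at both times. Saline blood of 3 h read 7.59, 8.07, 8.40 and 7.67, AMPH blood 9.73, 9.12, 9.40 and 10.07 and EIH blood 8.36, 8.13, 9.37 and 9.49. The AMPH arrays lay above all saline arrays (1.65 ± 0.40 SE, limma adjusted p = 0.0142), the second probe gave 1.80 ± 0.59 SE (limma adjusted p = 0.0733), and the call was lost without AMPH array 4 (1.49, limma adjusted p = 0.0529). The EIH difference of 0.91 ± 0.40 SE was not called. At 1 day saline read 7.91, 8.24, 8.33 and 7.42, EIH 8.65, 7.73, 8.94 and 8.83 and AMPH 9.03, 9.06, 10.80 and 10.03. AMPH again lay above all saline arrays (1.76 ± 0.40 SE, limma adjusted p = 0.0285), the sole call among 78 enzymes, where 204 of 9797 genes were called (2.08%). That call was lost without saline array 4 or AMPH array 3 or 4 (limma adjusted p = 0.0798, 0.0837 and 0.107). The liver sum of the AMPH 1 day arrays was 2030, 3690, 35054 and 4125, and Ugt1a2 was highest on the array with the highest sum. Hp was the brightest liver marker on each of these arrays (9.65, 11.29, 14.08 and 10.92). Neutrophil sums on those arrays were 27303, 29534, 69689 and 73384, and Ugt1a2 was higher on the pair with the higher sums. Array 3 was high for both sums, and the part of either cell type was not tested.

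**Figure D5:**
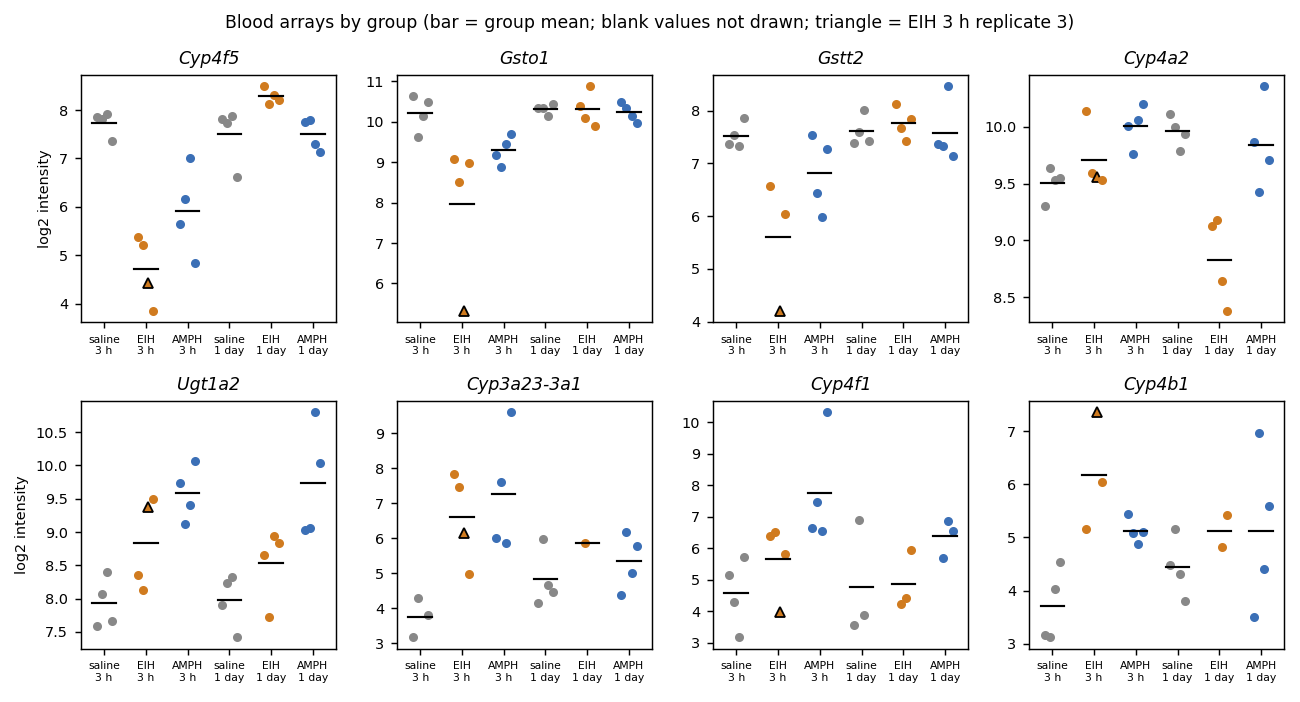
log2 intensity of 8 enzymes on each of the 24 blood arrays in the 6 groups, with the group mean as a line and array 3 of EIH at 3 h as a triangle. Cyp4f5 drops from 7.36 to 7.91 under saline to 3.85 to 5.38 after EIH at 3 h and lies at 8.12 to 8.50 after EIH at 1 day.

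At 1 day after EIH 1 of 72 enzymes was called in blood, where 8 of 9762 genes were called (0.082%). It was Cyp4a2, a fatty acid hydroxylase, which lay at 9.79 to 10.11 under saline and 9.13, 9.18, 8.64 and 8.38 after EIH without overlap (-1.13 ± 0.21 SE, limma adjusted p = 0.0454). The call was lost without any of the 4 saline arrays or without EIH array 1, 3 or 4 (limma adjusted p = 0.0598 to 0.208). Compared with AMPH at 1 day, EIH lay lower for Cyp4a2 (AMPH minus EIH 1.01 ± 0.21 SE, limma adjusted p = 0.103), and none of 70 enzymes was called with limma in that comparison (2 with an unadjusted p under 0.05; 0% of 9848 genes called). Without AMPH array 2 that count was 1. The enzymes' median difference after EIH at 1 day was -0.32, with 36.1% above 0, against 0.07 and 55.4% for all genes. After AMPH at 1 day it was -0.12 with 38.5% above 0, against 0.03 and 51.8%. Between saline blood of 1 day and of 3 h, which joins time and array set, none of 72 enzymes was called with limma and 10 had an unadjusted p under 0.05, where 58 of 9707 genes were called (0.598%). The enzymes' median there was 0.49, with 81.9% above 0, against 0.11 and 58.3% for all genes. Liver sums in saline blood were 1320 to 4620 at 3 h and 2550 to 19900 at 1 day.

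The related gene lists had few calls in blood, where 12.6% of all genes were called 3 h after EIH, 8.68% 3 h after AMPH and 2.08% 1 day after AMPH. None of 8 cofactor genes after EIH or 9 after AMPH was called with limma at 3 h. After EIH 3 of 13 receptors and transcription factors rose: Nfe2l2 (1.59), its partner Maff (1.13) and Rxra (1.07). Akr1b8, an aldo-keto reductase, rose by 2.70 and Adh5 fell by 2.07 among 27 phase I genes. Among 15 glutathione genes 3 rose: Ggt5 (1.28), Gstk1 (1.04) and Mgst1, the microsomal transferase (0.93). After AMPH Nfe2l2 (1.55), Akr1b8 (2.80), Mgst1 (1.39), Gstk1 (1.32) and Ggt5 (1.16) rose and the bile acid receptor Nr1h4 fell by 1.93. At 1 day after AMPH Ggt5 (1.99), Mgst1 (1.51) and Papss1 (0.71) rose, and no gene of these lists was called with limma 1 day after EIH. Both 3 h comparisons share their saline arrays, and the neutrophil sums given above moved with them.

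The exposures changed some enzymes differently in plexus and blood. The difference of the EIH effects at 3 h (plexus minus blood) was called for 5 of 73 enzymes, where 602 of 9813 genes were called (6.13%). The difference of the AMPH effects was called for 3 of 74, where 308 of 9788 genes were called (3.15%). For EIH these were Cyp4f5 (2.67 ± 0.51 SE, limma adjusted p = 0.00134), Cyp4b1 (-2.51 ± 0.72 SE, limma adjusted p = 0.0321), Gsto1 (2.04 ± 0.59 SE, limma adjusted p = 0.0330), Gstt2 (1.79 ± 0.52 SE, limma adjusted p = 0.0336) and Cyp3a23-3a1 (-3.60 ± 1.07 SE, limma adjusted p = 0.0402). For AMPH they were Ugt1a2 (-1.81 ± 0.49 SE, limma adjusted p = 0.0351), Cyp4f1 (-3.55 ± 0.97 SE, limma adjusted p = 0.0357) and Cyp2j3 (-2.88 ± 0.81 SE, limma adjusted p = 0.0448). None of these genes was called in plexus against saline, and all but Cyp2j3 (2.99 in blood after AMPH, limma adjusted p = 0.0626) were called in blood. Saline blood values of Cyp4b1, Cyp4f1, Cyp2j3 and Cyp3a23-3a1 lay partly at the bottom of the scale, so the sizes of their differences are uncertain. Cyp4f5 held when any single array was left out, whereas each of the other 7 was lost without at least 1 array. The EIH count was 2 without plexus saline array 3 or 4, plexus EIH array 3 or blood saline array 1 or 4, and 3 without plexus EIH array 1 or 4 or blood EIH array 3. The AMPH count was 0 without plexus saline array 2 or 3, plexus AMPH array 2 or 3 or blood AMPH array 4. It was 1 without plexus saline array 1 or 4, plexus AMPH array 1 or blood saline array 1, 2 or 3, and 9 without blood AMPH array 3. Without pools that shared a rat number the EIH count was 1, Cyp4f5, and the AMPH count was 0. The median difference of the enzymes was -0.45 for EIH and -0.72 for AMPH, against -0.04 and 0.02 for all genes.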

How the data were processed

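Single-colour Agilent arrays (Cy3) were read from the deposited table of normalized intensity values, on a linear scale and with blank cells. The labels' protocols name Tri Reagent for RNA and the Agilent Quick Amp kit for labelling; scanner software, background correction and normalization were not given in the sources read here. Array medians fell into 2 sets by time. Probes were named through the platform annotation, with symbols updated by accession where a current one was found (87 of 95 probes), and 1129 of the 14055 probes had no symbol. The accompanying RefSeq tables on build GRCr8 gave current symbols and promoters.

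Intensities were turned to log2 without further normalization, a value below 1 being set to 1 (0 values were), and blanks stayed missing. For each gene the probe brightest over all 44 arrays was used. limma 3.58.1 (R 4.3.3) fitted 1 mean per group with empirical Bayes: choroid plexus comparisons over its 20 arrays, blood over its 24, the tissue comparison over the 8 saline arrays of 3 h, and differences between tissues over all 44. Genes with at least 2 values in every group of a comparison were tested, and called at a Benjamini-Hochberg adjusted p-value under 0.05 over all genes tested. The number of arrays limits the precision. The fit was tested on simulated data.

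The members and gene lists were chosen with earlier results of these data known. Named genes were, in the tissue comparison, the 12 largest rises and 8 largest falls called; elsewhere all called members or the 4 smallest p; and a fixed set of enzymes. Genes outside this rule were named after their values were seen: other members called in the tissue comparison, members that separate the groups or stand high on 1 array, and Gsta2. Replicate numbers follow accession order and carry no pairing. Rat numbers shared between pools and blood were used as a block in an alternative. Other alternatives were quantile, 75th percentile and median scaling, a filter on dim genes, trend and robust empirical Bayes, array weights, fits of the compared groups alone, mean over probes, every probe alone, genes with a value on every array, and leaving out single arrays or pools with a recurring rat. Meninges were not analysed here. Python 3.11.15 drew the figures.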

Additional observations from a re-analysis of the deposited data

Results flagged for a closer look

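Single arrays far from the other 3 of their group were found in 15 of the 219 sets of 4 values of the named enzymes (6.85%), where chance gives about 1 in 20. In choroid plexus, array 2 of AMPH at 1 day was high for Cyp1b1 (8.35, others 5.43 to 5.82) and low for Ugt1a6 (6.81, others 7.85 to 8.01). Array 4 of saline was high for Cyp2w1 (8.90, others 4.78 to 5.27). Array 1 of AMPH at 3 h was high for Cyp2w1 (4.45, others 3.86 to 3.91) and low for Gstm5 (9.13, others 9.48 to 9.51), and array 4 of EIH at 3 h was low for Cyp4b1 (6.32, others 6.48 to 6.51).

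In blood, array 3 of EIH at 3 h was low for Gstp1 (8.31, others 13.70 to 14.01) and Gsto1 (5.32, others 8.51 to 9.07). Cyp2e1 was high on array 1 of EIH at 3 h (9.52, others 4.84 to 5.12) and on array 3 of AMPH at 1 day (7.71, others 4.51 to 4.85), and both arrays had the highest liver marker sum of their group. Cyp2j4 was high on array 4 of AMPH at 3 h (8.35, others 6.29 to 6.37), with the highest liver sum of all blood arrays. In saline blood, Cyp1b1 was high on array 4 of 1 day (9.03, others 5.16 to 5.64), Cyp4f6 on array 3 of 1 day (12.11, others 10.69 to 10.88), Cyp2d3 was low on array 1 of 3 h (4.97, others 6.70 to 7.05) and Cyp4f5 on array 4 of 3 h (7.36, others 7.82 to 7.91). The part of liver RNA in these values was not tested.

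The exposure effect differed between plexus and blood for 8 enzymes, by limma's test of the difference itself: 5 of 73 after EIH, where 6.13% of all genes were called, and 3 of 74 after AMPH, where 3.15% were. All but Cyp4f5 were lost without at least 1 array. After EIH at 3 h the difference was 2.67 for Cyp4f5, -2.51 for Cyp4b1, 2.04 for Gsto1, 1.79 for Gstt2 and -3.60 for Cyp3a23-3a1. After AMPH at 3 h it was -1.81 for Ugt1a2, -3.55 for Cyp4f1 and -2.88 for Cyp2j3.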

How the results depend on the processing

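The main counts of called enzymes were 29 between tissues, 1 in plexus after AMPH at 3 h, 5 in blood after each exposure at 3 h, 1 in blood after each exposure at 1 day, 5 and 3 for the differences between tissues in the EIH and AMPH effects, and 0 in the other comparisons. The single Cyp3a2 call in plexus fell to 0 with every probe alone, quantile scaling, the dimmest genes left out, trend and robust fitting, the compared groups alone, genes with a value on every array, or pools with a recurring rat left out. With array weights it became 6, plexus EIH became 2 at 3 h and 5 at 1 day, blood AMPH became 12 at 3 h and 0 at 1 day, blood AMPH against EIH at 1 day became 1, saline blood over time became 2 and the AMPH difference between tissues became 9. Calls over all genes rose as well with array weights, to 1354 in plexus after AMPH, 1110 after EIH and 203 at 1 day after EIH, to 1532 in blood after AMPH at 3 h and to 1213 for the AMPH difference. The blood count after AMPH at 3 h was 8 without the dimmest genes and 3 with the compared groups alone, and after EIH it was 2 with genes valued on every array. The blood count 1 day after EIH was 0 with every probe alone, the same median, the mean over probes or the compared groups alone, which also gave 0 after AMPH at 1 day. Blood AMPH against EIH at 1 day gave 1 with trend and robust fitting. The EIH difference between tissues gave 2 with genes valued on every array and 1 without recurring rats; the AMPH difference gave 0 without them, and 1 with the mean over probes or the compared groups alone. Plexus EIH at 1 day gave 1 without array 2 of AMPH at 1 day in the spread. The Gstt2 difference between tissues turned to -0.04 with the mean over probes. The cause of these changes was not tested.

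Leaving out single arrays gave 25 to 33 calls between tissues, 0 to 1 in plexus after AMPH at 3 h, 3 to 5 in blood after EIH and 2 to 10 after AMPH at 3 h, 0 to 1 in blood after EIH, after AMPH and between them at 1 day, 2 to 5 and 0 to 9 for the differences between tissues, and 0 to 0 elsewhere. Of the called enzymes named, 43 results were refitted 827 times: 696 refits kept the call, 130 lost it and 1 reversed. With arrays that list the same rat number in their titles as a replicate block, the counts stayed at 29, 5 and 3 (within-block correlation 0.0831, 0.167 and 0.167) and no call changed. Dim probes with blanks carry the least certain values: 18.3% of values in the dimmest 25% of probes were blank.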
